A study of Mus musculus with 6 samples.

Results

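The expression of 50 genes that carry cells through mitosis was compared between mouse embryonic fibroblasts of the NGLY1-/- genotype (3 libraries, titled PK with no explanation of the letters) and wild-type fibroblasts (WT, 3 libraries). The genes were chosen by name, as rows of the deposited count table whose symbol is on a list of mitotic cyclins and kinases, spindle checkpoint, kinetochore and spindle genes, and mitotic chromosome genes. This list and the further gene lists below were chosen with earlier results of these data known. All 50 were among the 23842 genes of the table, and all 50 were among the 15039 genes with enough counts to test. Both groups were of strain C57BL/6 and untreated, in serum-containing medium of high glucose content. NGLY1, a peptide:N-glycanase of the cytosol, removes N-linked glycans from misfolded glycoproteins. The labels do not name the deleted part of the gene, nor do they tie the libraries of a group to separate embryos, lines or dishes. Each p-value therefore reflects only the spread among these libraries, which may be technical.

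Entry into mitosis is driven by the kinase CDK1 bound to A- and B-type cyclins, and is opened by CDC25 phosphatases. Kinesins and other microtubule-binding proteins then build the spindle, and the checkpoint holds back the anaphase-promoting complex until every kinetochore is attached. Chromosome separation is followed by RhoA-driven cleavage of the cell. Many of these genes are transcribed late in the cycle under the MuvB complex, which binds a promoter element called the cell cycle genes homology region (CHR), together with B-MYB and FOXM1, and NF-Y, which binds CCAAT boxes. In fibroblast cultures their RNA is widely used as a sign of how many cells are dividing. In such bulk RNA, fewer cells in mitosis and less RNA per mitotic cell cannot be told apart.

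The promoters of the 4 genes with the smallest p that held the CHR letters are shown because the same letters recur across the group. Each stretch runs from 140 bases before to 30 bases after the annotated start, 5′ to 3′ in the direction of transcription, with RefSeq sequence of GRCm38.p6. Capitals mark CHR letters (TTTGAA or TTCGAA) and CCAAT, on either strand, so ATTGG is CCAAT on the opposite strand. The fifth promoter belongs to a gene that was higher in NGLY1-/- fibroblasts and was picked after its value was seen.
Cenpa (chr5:30666746-30666915, plus strand): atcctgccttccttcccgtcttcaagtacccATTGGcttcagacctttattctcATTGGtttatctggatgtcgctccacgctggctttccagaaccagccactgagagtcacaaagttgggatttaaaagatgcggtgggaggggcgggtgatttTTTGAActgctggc
Ccnb2 (chr9:70421525-70421694, minus strand): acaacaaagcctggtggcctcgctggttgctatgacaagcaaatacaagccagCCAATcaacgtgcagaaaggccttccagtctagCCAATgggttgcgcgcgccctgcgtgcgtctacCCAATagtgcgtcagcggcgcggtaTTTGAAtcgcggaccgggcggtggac
Ect2 (chr3:27153825-27153994, minus strand): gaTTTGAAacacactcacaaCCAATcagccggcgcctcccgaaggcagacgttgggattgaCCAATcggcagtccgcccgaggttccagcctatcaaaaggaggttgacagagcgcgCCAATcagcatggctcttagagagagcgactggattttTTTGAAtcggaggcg
Cenpf (chr1:189688057-189688226, minus strand): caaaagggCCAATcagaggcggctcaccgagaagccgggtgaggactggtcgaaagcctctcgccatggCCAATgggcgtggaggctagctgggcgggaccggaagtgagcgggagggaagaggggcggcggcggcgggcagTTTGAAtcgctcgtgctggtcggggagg
Cdc25b (chr2:131186808-131186977, plus strand): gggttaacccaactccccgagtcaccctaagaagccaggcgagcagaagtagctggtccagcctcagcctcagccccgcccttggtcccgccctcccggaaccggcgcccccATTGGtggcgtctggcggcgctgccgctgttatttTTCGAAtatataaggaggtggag

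A RefSeq promoter window, from 250 bases before the start to 50 after it, was given for 41 of the 50 genes. The CHR letters were found, on either strand and with overlapping matches counted, in 32 of these 41 (78.0%), against 1799 of 10817 other tested genes with a window (16.6%) and 21.7% of all 27025 genes with one. Within 50 bases on either side of the start the shares were 70.7% of the mitotic genes and 4.39% of the other tested genes. CCAAT was found in 75.6% of the mitotic genes and 43.3% of the other tested genes, and both elements in the same window in 68.3% of the mitotic and 7.05% of the other tested genes. By direction of change, 21 of the 26 genes that fell, 3 of the 5 that rose and 8 of the 10 that did not pass held the CHR letters. Cdc25b, which rose, has TTCGAA with its first base at position 8, counting the annotated start as 1, and Ccnb2, which fell most, has TTTGAA at position 5. A letter match describes these windows and is not a binding site. Windows were not given for Ccna2, Cdc25c, Foxm1, Aurkb, Incenp, Kif20a, Tpx2, Dlgap5 and Smc4.

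**Figure D1:**
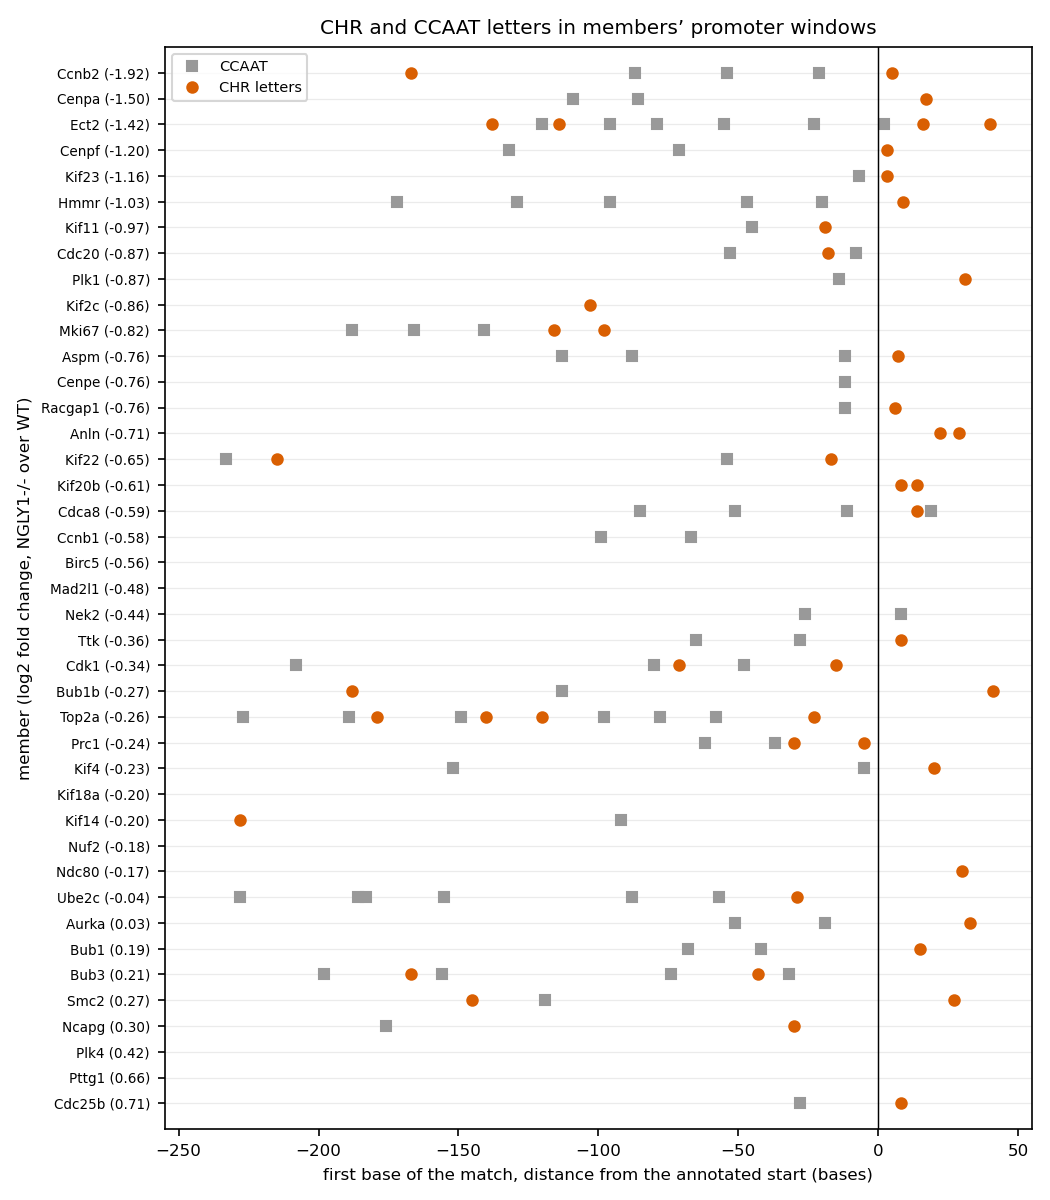
Position of CHR letters (circles) and CCAAT (squares) in the promoter windows of 41 mitotic genes, in bases from the annotated start, with genes ordered by log2 fold change of NGLY1-/- over WT (in brackets). CHR letters gather near the start in 29 of the 41 genes, among genes that fell and genes that rose; Ect2, Bub3 and Prc1 have 2 annotated starts each, so the same letters are drawn once per start for these genes.

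The libraries held 33007239 to 37841558 counts in the NGLY1-/- group and 27323577 to 37790710 in the WT group, and each mitotic gene had between 330 and 40763 counts in every library. Genes typed as ribosomal RNA took 0.208% to 3.73% of the NGLY1-/- counts and 1.45% to 2.82% of the WT counts. Ngly1 itself had 420 to 618 counts in NGLY1-/- libraries and 307 to 668 in WT libraries (log2 fold change 0.00, adjusted p = 0.99), so whole-gene counts do not check the genotype and every direction rests on the labels. Both groups expressed fibroblast genes such as Col1a1, at a mean of 1118 CPM (counts scaled to a common library size after TMM) in NGLY1-/- and 1183 CPM in WT libraries. Of 12 tested fibroblast markers 2 rose (Fn1 and Dcn) and 6 fell (Col1a2, Vim, Pdgfra, Pdgfrb, Thy1 and S100a4), and Lum was at or near 0. Other markers were low as well. Thy1 averaged 1.25 CPM in NGLY1-/- and 3.90 CPM in WT libraries. Postn averaged 5.53 CPM in NGLY1-/- and 3.38 CPM in WT libraries, and Dcn 15.7 and 3.36 CPM in the same order. The summed level of 13 fibroblast markers was 11008 to 12250 CPM in NGLY1-/- and 8673 to 9744 CPM in WT libraries, most of it in NGLY1-/- libraries Fn1 (fibronectin), which rose 3.42-fold. Without Fn1 the sum was 4157 to 4821 CPM in NGLY1-/- and 6577 to 7409 CPM in WT libraries, with Vim (vimentin) 2.57-fold and S100a4 7.59-fold lower. Epithelial markers summed to 22.1 to 31.3 CPM in NGLY1-/- and 54.2 to 108 CPM in WT libraries, with 3 of 4 tested lower, nearly all of it Krt19, while Cdh1 was under 1 CPM in every library. Macrophage and leukocyte markers summed to 8.82 to 10.1 CPM in NGLY1-/- and 5.16 to 8.41 CPM in WT libraries (1 of 2 tested higher). Endothelial markers summed to 2.73 to 2.86 CPM in NGLY1-/- and 1.49 to 2.20 CPM in WT libraries (1 of 2 higher). Erythroid markers, of which 0 could be tested, reached at most 0.0295 CPM in NGLY1-/- and 0.147 CPM in WT libraries, and Ptprc was at or near 0. Neural markers summed to 280 to 377 CPM in NGLY1-/- and 230 to 365 CPM in WT libraries, most of it the intermediate filament gene Nes, with 2 of 4 tested higher. The part of these markers in the results was not tested.

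The mitotic genes were lower in NGLY1-/- fibroblasts for the most part, and by modest amounts. At a false discovery rate of 0.05, 30 of 50 fell and 5 rose, while 15 did not pass. Over all tested genes 60.9% passed, 30.2% as lower and 30.7% as higher, so the 60% of mitotic genes that fell stands beside 30.2% and the 10% that rose beside 30.7%. The median log2 fold change was -0.40, with quartiles of -0.76 and -0.15, against -0.04 over all tested genes. Of the 50, 6 fell by 2-fold or more, beside 14.9% of all tested genes, and 0 rose that much, beside 13.6%. The libraries of the groups did not overlap for 37 of the 50, beside 67.3% of all tested genes. The NGLY1-/- libraries lay wholly below the WT libraries for 31 of the 50 (33.5% of all tested genes) and wholly above for 6 (33.8%). Scaled by library totals only, 37 fell and 3 rose, with a shift of the median over all genes to -0.16. Without WT replicate 1, 29 fell and 3 rose.

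**Figure D2:**
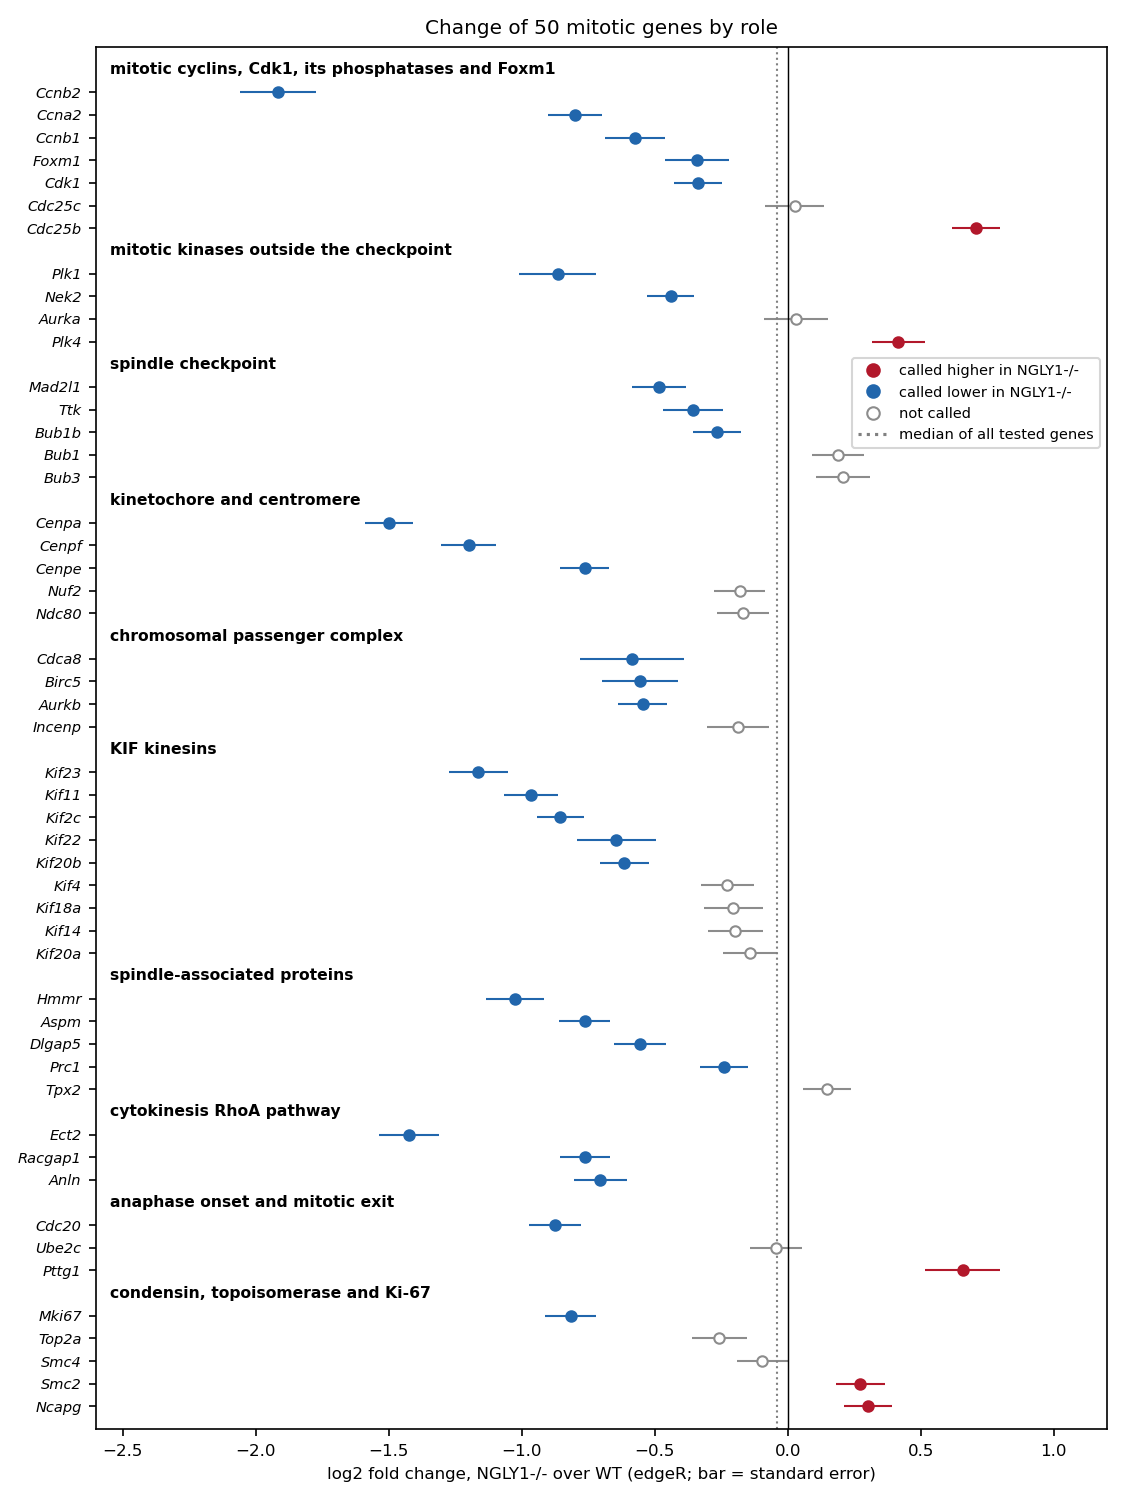
Log2 fold change of NGLY1-/- over WT (horizontal axis, bars show the standard error) for the 50 mitotic genes, grouped by role. The 30 genes that fell are in blue, the 5 that rose in red and the 15 that did not pass are open; the dotted line marks the median of all tested genes, -0.04.

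The share of counts taken by the 50 genes was 0.680%, 0.692% and 0.627% in the NGLY1-/- libraries and 0.952%, 1.01% and 0.981% in the WT libraries. Their summed level was 6938 ± 240.1 CPM in NGLY1-/- and 9438 ± 521 CPM in WT libraries (SD, n = 3 each), and the libraries of the groups did not overlap. The libraries of a group also differed from each other across the genes. WT replicate 1 was the lowest WT library for 43 of the 50, and NGLY1-/- replicate 3 the lowest of its group for 28. For Ccnb2, Cenpa, Ect2 and Cenpf every NGLY1-/- library still lay below every WT library, as the map of all 50 genes shows.

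**Figure D3:**
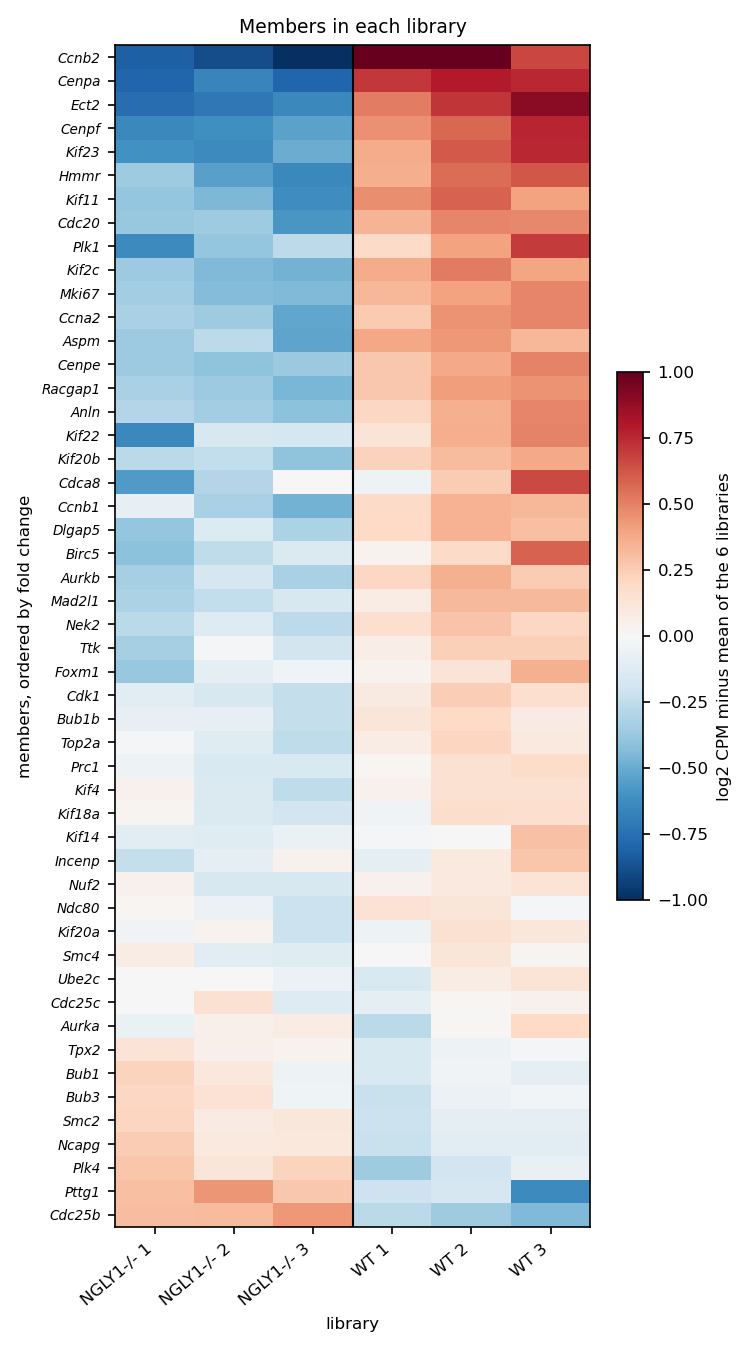
Log2 CPM of each mitotic gene in each library, minus its mean over the 6 libraries (colour, cut at -1 and 1), with NGLY1-/- libraries left of the line and genes ordered by fold change. The upper rows are blue in all 3 NGLY1-/- libraries and red in the WT libraries, and the 5 lowest rows, the genes that rose, show the opposite.

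Among the cyclins and CDK1 regulators, 5 of 7 fell and 1 rose. Counts by role, here and below, cover 3 to 9 genes each. They stand beside 30.2% lower and 30.7% higher over all tested genes. Ccnb2, cyclin B2 (chr9:70407689-70421554 in GRCm38), had 35.1, 33.4 and 27.7 CPM in NGLY1-/- libraries, against 130, 135 and 98.2 CPM in WT libraries. It was the most reduced of the 50 genes, 3.78-fold lower (log2 fold change -1.92 ± 0.14 SE, adjusted p = 2.92e-06), and no NGLY1-/- library came near the lowest WT library. Ccna2, cyclin A2, had 179, 174 and 156 CPM in NGLY1-/- libraries, against 268, 305 and 313 CPM in WT libraries, 1.74-fold lower (adjusted p = 8.58e-05). Ccnb1, cyclin B1, the main partner of CDK1 in mitosis, fell to 114 ± 15.9 CPM in NGLY1-/- libraries, against 170 ± 9.81 CPM in WT libraries (SD, n = 3 each; log2 fold change -0.58, adjusted p = 0.00144). The difference in fold change between the B-type cyclins was not tested. The ratio of Ccnb2 to Ccnb1 counts within a library, chosen after the values were seen, was 0.267, 0.301 and 0.277 in NGLY1-/- libraries and 0.819, 0.761 and 0.563 in WT libraries. Such a ratio does not depend on the scaling. Cdk1, the kinase itself, fell by 0.34 on the log2 scale (adjusted p = 0.00774), as did Foxm1, a transcription factor for late cell cycle genes (adjusted p = 0.031). Foxm1 did not pass without any one of 4 libraries (NGLY1-/- replicate 1 or 2, WT replicate 2 or 3), with an adjusted p of 0.0626 to 0.128, and Cdk1 did not pass without WT replicate 2 (0.0566).

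The phosphatase genes among the 50 that activate CDK1, Cdc25b and Cdc25c, did not fall. Cdc25b, which starts that activation (chr2:131186436-131198511), had 162, 163 and 177 CPM in NGLY1-/- libraries, against 109, 102 and 96.5 CPM in WT libraries. Its groups did not overlap, and it rose 1.63-fold (log2 fold change 0.71 ± 0.09 SE, adjusted p = 9.24e-05), the largest rise of the 50. Cdc25c, which adds to activation at mitotic entry, had 29.6 ± 2.93 CPM in NGLY1-/- libraries and 29.1 ± 1.54 CPM in WT libraries (SD, n = 3 each; log2 fold change 0.03, adjusted p = 0.852). Its sign turned with the scaling, to -0.087 by library totals only.

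**Figure D4:**
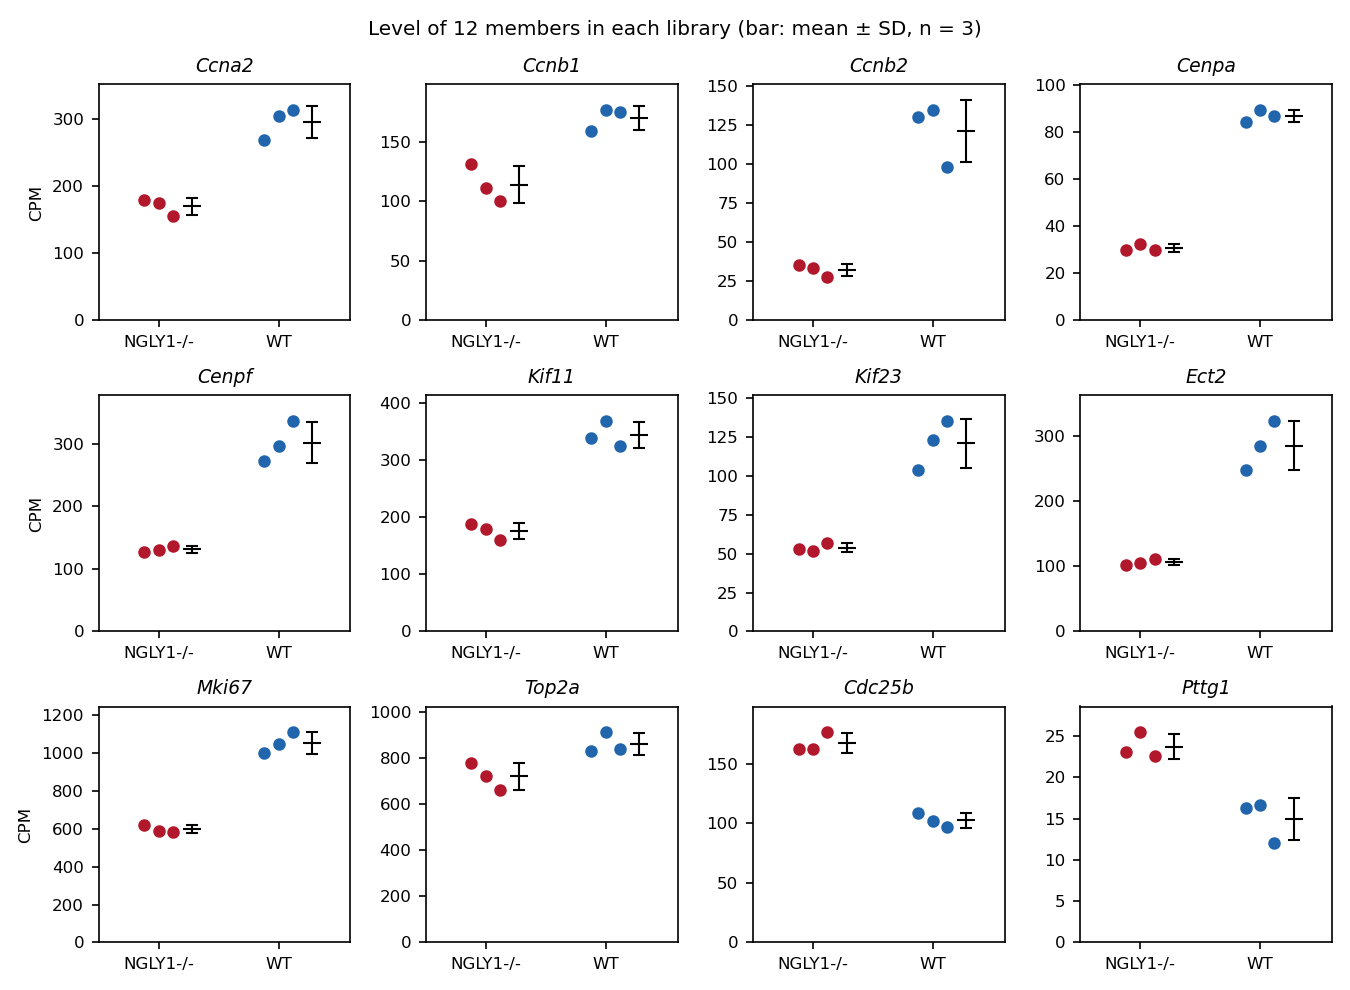
CPM of 12 mitotic genes in each of the 3 NGLY1-/- libraries (left, red) and the 3 WT libraries (right, blue), with the mean ± SD (n = 3) beside the points and axes that start at 0. Libraries of the groups do not overlap in any panel, Top2a included, although Top2a did not pass the test.

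Of the mitotic kinases outside the checkpoint, 2 of 4 fell and 1 rose. Plk1, polo-like kinase 1, which acts from mitotic entry to cytokinesis, had 32.1, 38.2 and 41.6 CPM in NGLY1-/- libraries, against 57.0, 66.0 and 81.0 CPM in WT libraries. The groups were apart, although each varied within itself, and Plk1 was 1.82-fold lower (adjusted p = 0.000571). Nek2, a kinase of centrosome separation, differed by -0.44 on the log2 scale (adjusted p = 0.00165). Plk4, the kinase that starts centriole duplication, rose to 144 ± 7.71 CPM in NGLY1-/- libraries, against 108 ± 10.6 CPM in WT libraries (SD, n = 3 each; log2 fold change 0.42, adjusted p = 0.00467). Aurka, Aurora A of the spindle poles, differed by 0.03 on the log2 scale (adjusted p = 0.833), which turned to -0.080 by library totals only.

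The checkpoint and kinetochore genes among the 50 fell or did not pass. In the spindle checkpoint 3 of 5 fell. Mad2l1, which encodes the anaphase inhibitor MAD2, had 52.1, 54.7 and 58.2 CPM in NGLY1-/- libraries, against 68.3, 81.2 and 81.1 CPM in WT libraries. Its groups did not overlap (log2 fold change -0.48, adjusted p = 0.00215). Ttk, the MPS1 kinase that starts checkpoint signalling, differed by -0.36 on the log2 scale (adjusted p = 0.0191), and Bub1b (BUBR1) by -0.27 (adjusted p = 0.0263). Ttk did not pass without NGLY1-/- replicate 1 or 3 or WT replicate 2, with an adjusted p of 0.0681 to 0.0809. Bub1b did not pass without NGLY1-/- replicate 2 or 3 or WT replicate 1 or 2, with one of 0.0526 to 0.133, and also lost its call when both libraries numbered 3 were left out (0.0514) or genes of low count were kept (0.0736). The kinetochore recruiters Bub1 and Bub3 had log2 fold changes of 0.19 (adjusted p = 0.117) and 0.21 (adjusted p = 0.101). Both passed as higher without NGLY1-/- replicate 3 (0.0467 and 0.0454) and with both number 3 libraries left out (0.025 and 0.0111), and Bub3 also without WT replicate 3 (0.0364).

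At the centromere and kinetochore, 3 of 5 fell and 2 did not pass. Cenpa, the histone H3 variant that marks centromeres (chr5:30666877-30674837), had 29.8, 32.7 and 29.9 CPM in NGLY1-/- libraries, against 84.5, 89.6 and 87.0 CPM in WT libraries. The libraries within each group were close together, and Cenpa had the smallest adjusted p of the 50 genes (2.83-fold lower, adjusted p = 6.54e-07). Cenpf, a large outer kinetochore protein (chr1:189640606-189688107), had 127, 130 and 137 CPM in NGLY1-/- libraries, against 272, 297 and 337 CPM in WT libraries, 2.30-fold lower (adjusted p = 6.78e-06). Cenpe, the kinesin that carries chromosomes to the spindle equator, had 173, 168 and 172 CPM in NGLY1-/- libraries, against 268, 290 and 313 CPM in WT libraries, 1.70-fold lower (adjusted p = 6.58e-05). Ndc80 and Nuf2, which form the microtubule-binding arm of the NDC80 complex, had log2 fold changes of -0.17 (adjusted p = 0.158) and -0.18 (adjusted p = 0.124). The other subunits of that complex, Spc24 and Spc25, fell 1.78-fold and 1.65-fold (adjusted p = 0.000113 and 0.000776). Beyond the 50, kinetochore and centromere genes moved both ways. Nsl1, Cenpm, Cenpk, Dsn1, Cenph, Cenpi and Cenpn rose, with log2 fold changes of 0.28 (Cenpn) to 1.02 (Nsl1). Sgol2a, Cenpl, Cenpt, Cenpw, Ska1 and Zwilch fell, with log2 fold changes of -0.49 (Sgol2a) to -0.27 (Zwilch). Knl1, Mis12, Zwint, Zw10, Ska2, Ska3 and Sgol1 did not pass. These genes were picked after their values were seen, from the list of other mitosis genes. Of that list 45.0% fell and 15.0% rose, beside 30.2% and 30.7% of all tested genes. By library totals only, Ndc80 and Nuf2 passed as lower (0.0429 and 0.0213).

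The chromosomal passenger complex corrects wrong attachments and guides cytokinesis, and 3 of its 4 genes fell. Aurkb, its kinase Aurora B, had 51.1, 57.2 and 51.2 CPM in NGLY1-/- libraries, against 74.2, 82.1 and 76.5 CPM in WT libraries (log2 fold change -0.55, adjusted p = 0.000578). Birc5 (survivin) differed by -0.56 on the log2 scale (adjusted p = 0.00723). Cdca8 (borealin) had 35.4, 42.9 and 52.3 CPM in NGLY1-/- libraries, against 50.6, 62.6 and 83.2 CPM in WT libraries. Its groups overlapped, and its call (log2 fold change -0.59, adjusted p = 0.0283) was lost without NGLY1-/- replicate 1 or 2 or WT replicate 2, with an adjusted p of 0.0502 to 0.108, and with no low-count filter (0.0568). Incenp, the scaffold, differed by -0.19 on the log2 scale (adjusted p = 0.185), and passed as lower by library totals only.

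Of the 9 KIF kinesins 5 fell, 4 did not pass and all 9 had a negative fold change. Kif23, the motor of the central spindle (chr9:61917277-61946810), had 52.8, 51.8 and 57.2 CPM in NGLY1-/- libraries, against 104, 123 and 136 CPM in WT libraries, 2.24-fold lower (adjusted p = 1.38e-05). Kif11 (Eg5), which pushes the spindle poles apart, had 188, 180 and 160 CPM in NGLY1-/- libraries, against 338, 369 and 324 CPM in WT libraries, 1.95-fold lower (adjusted p = 2.5e-05). For both genes the highest NGLY1-/- library lay well below the lowest WT library. Kif2c (MCAK), which takes microtubules apart at centromeres, had 59.0, 55.9 and 54.8 CPM in NGLY1-/- libraries, against 98.2, 109 and 99.8 CPM in WT libraries (1.81-fold lower, adjusted p = 2.36e-05). Kif22, a motor on chromosome arms, had 29.9, 41.9 and 41.4 CPM in NGLY1-/- libraries, against 51.1, 60.1 and 66.0 CPM in WT libraries (1.56-fold lower, adjusted p = 0.00388). Kif20b, a kinesin of late cytokinesis, had 135, 137 and 123 CPM in NGLY1-/- libraries, against 191, 203 and 212 CPM in WT libraries (1.53-fold lower, adjusted p = 0.000239). None of these 3 overlapped between groups. Kif4, Kif14, Kif18a and Kif20a had log2 fold changes of -0.23, -0.20, -0.20 and -0.14 (adjusted p = 0.0735, 0.124, 0.131 and 0.249). By library totals only, Kif4, Kif14 and Kif18a passed as lower. Kif4 also passed under the 1 CPM filter and without NGLY1-/- replicate 1. For Kif14 every NGLY1-/- library lay below every WT library. Kif20a overlaps Cdc23 by 4930 bases, so with the counting strand unknown the reads there may belong to either gene, and Cdc23 rose 2.10-fold.

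Of the genes of spindle-associated proteins, 4 of 5 fell. Hmmr, a microtubule-binding protein of the spindle poles (chr11:40701388-40733464), had 75.3, 66.2 and 61.7 CPM in NGLY1-/- libraries, against 124, 142 and 148 CPM in WT libraries, 2.04-fold lower (adjusted p = 2.73e-05). Aspm, a spindle pole protein whose human counterpart is mutated in microcephaly, had 135, 144 and 120 CPM in NGLY1-/- libraries, against 226, 233 and 218 CPM in WT libraries (1.70-fold lower, adjusted p = 8.5e-05). The groups were apart for both. Dlgap5 differed by -0.56 on the log2 scale (adjusted p = 0.00069), and Prc1, which bundles central spindle microtubules, by -0.24 (adjusted p = 0.0385). Prc1 did not pass without NGLY1-/- replicate 2 or 3 or WT replicate 2 or 3, with an adjusted p of 0.0745 to 0.15, nor when both number 3 libraries were left out (0.136) or genes of low count were kept (0.116). Tpx2, the activator of Aurora A, differed by 0.15 on the log2 scale (adjusted p = 0.173), with all 3 NGLY1-/- libraries above the WT libraries.

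All 3 genes of the RhoA pathway of cytokinesis fell. Ect2, the exchange factor that activates RhoA at the cleavage plane (chr3:27097222-27154253), had 102, 106 and 111 CPM in NGLY1-/- libraries, against 247, 284 and 323 CPM in WT libraries. It was 2.68-fold lower (log2 fold change -1.42 ± 0.11 SE, adjusted p = 3.71e-06). Racgap1, which with KIF23 forms centralspindlin and recruits ECT2, had 196, 190 and 179 CPM in NGLY1-/- libraries, against 295, 328 and 334 CPM in WT libraries (1.70-fold lower, adjusted p = 7.03e-05). Anln (anillin), the scaffold of the contractile ring, had 293, 282 and 271 CPM in NGLY1-/- libraries, against 415, 461 and 503 CPM in WT libraries (1.63-fold lower, adjusted p = 0.00019). No library of 1 group reached into the other for these genes.

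Genes of anaphase onset did not share a direction. Cdc20, the mitotic activator of the anaphase-promoting complex, had 84.5, 85.9 and 73.6 CPM in NGLY1-/- libraries, against 139, 154 and 154 CPM in WT libraries, 1.83-fold lower (adjusted p = 3.67e-05). Pttg1 (securin), which holds separase inactive until that complex destroys it, had 23.1, 25.5 and 22.6 CPM in NGLY1-/- libraries, against 16.3, 16.7 and 12.1 CPM in WT libraries. It rose 1.58-fold (adjusted p = 0.00252), with groups that did not overlap. Ube2c, the complex's ubiquitin-conjugating enzyme, differed by -0.04 on the log2 scale (adjusted p = 0.719), which turned to 0.031 without WT replicate 3.

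Among the chromosome genes, Mki67, the proliferation marker Ki-67 that coats mitotic chromosomes, had 623, 587 and 583 CPM in NGLY1-/- libraries, against 998, 1047 and 1113 CPM in WT libraries. The groups were apart and Mki67 was 1.76-fold lower (adjusted p = 5.76e-05). Top2a, topoisomerase II alpha, which untangles sister chromosomes, had 779, 725 and 660 CPM in NGLY1-/- libraries, against 830, 915 and 842 CPM in WT libraries. Its log2 fold change of -0.26 did not pass (adjusted p = 0.0532), although it passed in the DESeq2 test (0.0283), in limma-voom (0.0399) and with structural RNA genes left out (0.0384), among others. Per transcript length Top2a was the most abundant of the 50 genes in both groups, at 138 RPKM (CPM per 1000 bases of the longest GENCODE transcript) in NGLY1-/- and 165 RPKM in WT libraries, and Kif18a the least, at 5.14 RPKM in NGLY1-/- and 5.92 RPKM in WT libraries. The condensin genes Ncapg and Smc2 rose, with log2 fold changes of 0.30 (adjusted p = 0.0147) and 0.27 (adjusted p = 0.0238), while Smc4 had one of -0.10 (adjusted p = 0.402). By library totals only, Ncapg and Smc2 did not pass (0.0927 and 0.139), nor without WT replicate 1 (0.0581 and 0.0892), and Smc2 also did not pass without NGLY1-/- replicate 1 (0.0555) or WT replicate 2 (0.059). The condensin subunit gene Ncapd2, from the list of other mitosis genes, fell 2.44-fold (adjusted p = 7.42e-06).

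Other genes of mitosis, from a list of 60 tested genes beyond the 50, fell for 27 (45.0%) and rose for 9 (15.0%), beside 30.2% and 30.7% over all tested genes, with a median log2 fold change of -0.17. By p the first were Cdca3, a trigger of mitotic entry, 2.53-fold lower (adjusted p = 1.52e-06), Ccnf (cyclin F), 2.56-fold lower (4.33e-06), Ncapd2, and Nsl1, a kinetochore gene that rose 2.02-fold (8.88e-06). The subunits of the anaphase-promoting complex with Fzr1 rose for 5 of 15 (33.3%) and fell for 3 (20.0%), against the same 30.7% and 30.2%. Fzr1 (CDH1), which activates that complex at mitotic exit, fell 2.48-fold (adjusted p = 1.7e-05), Anapc13 fell 2.20-fold (0.000387), Anapc15 rose 1.61-fold (0.000495) and Cdc23 rose 2.10-fold (4.71e-06).

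The regulators that act on CHR and CCAAT promoters, with the E2F and pocket protein genes, rose for 10 of 21 (47.6%) and fell for 5 (23.8%), beside 30.7% and 30.2% of all tested genes. Rbl1 (p107), a pocket protein, had 187 ± 7.83 CPM in NGLY1-/- libraries and 87.6 ± 11.4 CPM in WT libraries (SD, n = 3 each; 2.14-fold higher, adjusted p = 1.95e-05). Rbl2 (p130), its relative in the repressor complex of resting cells, had 34.1 ± 6.23 CPM in NGLY1-/- libraries and 90.1 ± 15.8 CPM in WT libraries (SD, n = 3 each; 2.64-fold lower, adjusted p = 6.49e-05). Nfya, a subunit of NF-Y, rose 1.89-fold (adjusted p = 5.3e-05), and Tfdp2, a partner of E2F factors, fell 1.89-fold (0.000181). The other NF-Y subunit genes differed in direction: Nfyb rose 1.40-fold (adjusted p = 0.00188) and Nfyc fell 1.47-fold (0.000993). Mybl2 (B-MYB), named after its value was seen, had 106, 121 and 128 CPM in NGLY1-/- libraries, against 46.0, 49.7 and 81.8 CPM in WT libraries. It rose with an adjusted p of 0.00255. The MuvB genes on the list moved both ways. Lin54 rose 1.43-fold (adjusted p = 0.000801), Lin52 rose 1.30-fold (0.0344) and Rbbp4 fell 1.27-fold (0.00637), while Lin9 and Lin37 did not pass. Of 8 CDK inhibitor and p53 genes 2 rose (25%) and 3 fell (37.5%), shares near the 30.7% and 30.2% of all tested genes. Cdkn2d, Cdkn1b (p27) and Cdkn2c were 3.78-fold, 3.25-fold and 2.59-fold lower (adjusted p = 6.06e-06, 1.97e-05 and 1.9e-05), and Cdkn2b was 1.54-fold higher (0.00128). Cdkn1a (p21), named after its value was seen, was 2.26-fold higher (adjusted p = 0.00203).

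Genes of the preceding phase of the cycle, DNA replication and its onset, rose more often than they fell. Of 34 tested, 14 rose (41.2%) and 6 fell (17.6%), beside 30.7% and 30.2% of all tested genes, with a median log2 fold change of 0.15. The replication genes Mcm10, Prim1 and Gins1 rose 2.21-fold, 2.11-fold and 2.15-fold (adjusted p = 4.86e-06, 8.19e-06 and 1.08e-05). The summed level of this list was 5595 to 5820 CPM in NGLY1-/- libraries, against 4771 to 5251 CPM in WT libraries, while that of the other mitosis genes was 3624 to 3671 CPM in NGLY1-/- libraries, against 4119 to 4541 CPM in WT libraries. The difference between the lists was not tested.

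**Figure D5:**
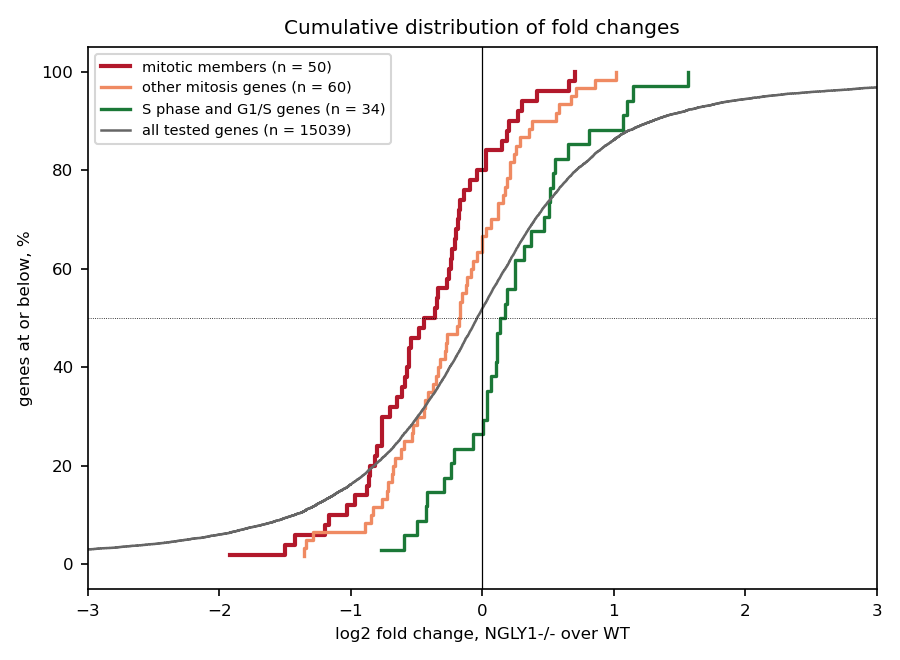
Cumulative share of genes (vertical axis, %) at or below each log2 fold change of NGLY1-/- over WT, for the 50 mitotic genes, 60 other mitosis genes, 34 S phase and G1/S genes and all 15039 tested genes. The curve of the mitotic genes crosses 50% at -0.40, left of all tested genes at -0.04 and of the S phase and G1/S genes at 0.15. All 50 mitotic genes lie between -1.92 and 0.71.

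How each gene changed was set beside its position. For each gene the median log2 fold change of the other tested genes within 5 Mb was taken (15 to 211 genes, the mitotic genes left out). Across the 50 genes this neighbour median and the gene's own change had Pearson r = 0.42 and Spearman rho = 0.41, a description over genes that share libraries and in part neighbours. Where the neighbour median was above 0.5, on chromosome 2, chromosome 13 and chromosome 18, 2 of 9 genes fell (Bub1b and Ccnb1) and 1 rose (Cdc25b). Of the other tested genes on these whole chromosomes, 21.5%, 13.8% and 17.6% fell and 44.4%, 52.1% and 52.5% rose. Where the neighbour median was below -0.3, on chromosomes 6, 9 and X, 5 of 6 fell and 0 rose. Of the other tested genes on those whole chromosomes, 46.5%, 49.9% and 39% fell and 17%, 14.4% and 21.3% rose. The cut-offs of 0.5 and -0.3 are unequal. Whole chromosomes also hold regions outside them, such as that of Kif18a on chromosome 2, with a neighbour median of -0.01. Shares among the other genes of the same 5 Mb regions are not given here, so these counts have no like background. At the 35 other mitotic genes 23 fell and 4 rose, beside 30.2% and 30.7% of all tested genes. Of the 50 genes 42 were lower than their own neighbours' median, with a median difference of -0.59. The like share of other tested genes was not computed. Ccnb1 fell among neighbours with a median of 0.65, and Mki67 among neighbours with one of 0.44, while Cdc25b rose among neighbours with one of 0.78 and Ccnb2 fell among neighbours with one of -0.52. The part of position in any single change was not tested.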

How the data were processed

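Per the labels' protocols, libraries came from Trizol-extracted total RNA, by a kit for stranded total RNA. The deposited table holds raw counts, whole numbers per gene for 6 libraries, per the file headers. The submitters' processing notes list STAR 2.5.1b and mm10, with no role stated. Which program, annotation and strand choice made the counts is not given in the sources used here. Genes that overlap could have exchanged reads. Besides Kif20a this concerns, among others, Prc1 with Rccd1 (21669 bases), Ncapg with Lcorl (3367 bases) and Ccna2 with Exosc9 (863 bases). Columns were matched to labels by group and number, and 0 rows named no gene. Depth was 27323577 to 37841558 counts per library, and libraries of a group differed by more than sampling noise (chi-square per gene of 12.2 to 147).

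Genes were kept by filterByExpr, scaled by TMM and tested in R 4.3.3 with edgeR 4.0.16 (robust quasi-likelihood fit, genotype as the only term, two-sided), with Benjamini-Hochberg adjustment over all 15039 genes tested at 0.05. CPM uses TMM-scaled library sizes, and standard errors come from the fit. Adjusted p-values in the text are from this test unless another is named. The step was also run on simulated counts with few changed genes and a common dispersion. In these data 60.9% of tested genes passed, so that run bears on the code and not on the calls here. Alternatives were DESeq2 1.42.0 size factors and test, limma-voom (limma 3.58.1), library totals only, no filter, a filter of 1 CPM in 3 or more libraries, a block for replicate number, each library left out, both libraries numbered 3 left out, and structural RNA genes left out.

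Positions and promoters are from RefSeq on GRCm38, which mm10 denotes. Of tested gene IDs, 97.3% were found in RefSeq. RPKM lengths are from GENCODE M21. The members and lists were chosen with earlier results of these data known. Values per library are given for genes past the threshold with a fold change of at least 1.5 and for the gene of each role with the smallest p, and for Top2a, chosen after its values were seen; from each further list of cell cycle genes the 4 with the smallest p are named, except 1 result that is not reported here, and other named genes of those lists were picked after their values were seen.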

Additional observations from a re-analysis of the deposited data

How the results depend on the processing

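Across 15 alternatives, 24 of the 30 falls and 3 of the 5 rises (Cdc25b, Plk4 and Pttg1) kept their direction and stayed past the threshold in every one, and 0 calls reversed. Falls of Cdk1, Foxm1, Bub1b, Ttk, Cdca8 and Prc1 and rises of Ncapg and Smc2 were lost in at least 1. Of the 15 genes that did not pass, 9 passed in at least 1, and 3 changed sign in at least 1. Cdc25c had a log2 fold change of -0.087 by library totals only and -0.010 under the 1 CPM filter, and -0.034 to 0.11 with 1 library left out (negative without NGLY1-/- replicate 2 or WT replicate 1). Aurka had -0.080 and -0.0047 under those settings, and -0.086 (without WT replicate 1) to 0.16. Ube2c had 0.049 without both libraries numbered 3, and -0.12 to 0.031 (without WT replicate 3). By library totals only the number that rose was 3 and the median of the 50 genes -0.51, where the median of all genes was -0.16; the cause was not tested.

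With each library left out in turn, the mitotic genes that fell numbered 24 to 29 and those that rose 3 to 7 (3 without WT replicate 1), with a median of -0.44 to -0.34. All genes called numbered 8166 to 10203, other mitosis genes 22 to 26 lower and 7 to 13 higher, and S phase and G1/S genes 12 to 15 higher and 4 to 6 lower. Replicate numbers were not shown to pair the libraries: same-numbered libraries deviated from their group means with r = 0.0899, 0.0589 and 0.252 over all tested genes, and NGLY1-/- replicate 1 correlated best with WT replicate 2 (0.155). Over the 50 genes alone the same-number values were 0.491, 0.282 and 0.695. Each NGLY1-/- library correlated best with the WT library of its number, while WT replicate 2 correlated best with NGLY1-/- replicate 1 (0.386). Deviations cancel out within a group, so these values depend on one another. In both groups the pairs with library 3 differed most, with chi-square per gene of 66.4 to 147, against 12.2 and 33.2 for the other pairs. The correlations are at most a weak hint from the data, not the design. With the number as a replicate block, 29 of the 50 fell and 5 rose, with a median of -0.40 and 9253 genes called, and Prc1 alone lost its call (adjusted p = 0.0595). With the replicate block the other mitosis genes had 27 falls and 9 rises and the S phase and G1/S genes 14 rises and 6 falls. The lowest count of any of the 50 genes in a library was 330; no depth-matched comparison was made.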
